A study of Homo sapiens with 12 samples.

Results

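HEK293, a long-established line from human embryonic kidney, was transduced on day 1 with tandem plasmids that the labels call A197-270, and the transcriptional response of these cells to interferon gamma (IFN-gamma) was taken from 6 of the 12 libraries of the series. Libraries 4, 5 and 6 came from A197-270 cells without IFN-gamma, and libraries 10, 11 and 12 from A197-270 cells that received it on day 2. All were harvested on day 4. The other 6 libraries came from cells transduced with Flag vector (vector cells), libraries 1 to 3 without IFN-gamma and 7 to 9 with it. They serve here to set the response of A197-270 cells beside that of vector cells. What A197-270 encodes, the share of cells that took up the plasmids and the dose of IFN-gamma are not given in the sources used here. The groups are labelled sets of 3 libraries, with nothing that says they came from separate cultures, so the p-values measure the spread between these libraries, which may be technical. Each value is a read count divided by 1 factor per library, as the authors deposited it. Differences were tested across all 14049 genes whose mean over the 12 libraries was at least 10, of 19836 in the table, with limma on log2(value + 1). A gene is said to have risen or fallen where its Benjamini-Hochberg adjusted p was under 0.05. Folds are on that log2 scale, so the change of low genes is understated.

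IFN-gamma is the cytokine of type II interferon signalling. It binds the receptor chains IFNGR1 and IFNGR2, whose kinases JAK1 and JAK2 activate STAT transcription factors, and these bind the gamma-activated site (GAS) in the promoters of target genes such as the transcription factor gene IRF1. Type I interferons signal through IFNAR1 and IFNAR2 to a complex that holds STAT2 and IRF9 and binds the interferon-stimulated response element (ISRE). Many genes carry one element or both, and in epithelial and other non-immune cells IFN-gamma is known for raising antigen presentation, guanylate-binding proteins, chemokines and antiviral genes.

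With IFN-gamma, 588 genes of A197-270 cells rose, 4.19% of the genes tested, and 422 fell, 3.0% of them, while 13039 were not called. Under quantile scaling 530 rose and 562 fell, so the balance of the directions depends on the scaling. The response was uneven in size between the directions. A rise of at least 2-fold was found for 174 genes (1.24%), of which 122 rose at least 4-fold and 46 at least 16-fold. A fall of at least 2-fold was found for 4. The median log2 change was 0.41 among the genes that rose and -0.22 among those that fell, and 404 of the 422 falls were smaller than 1.5-fold. The count of falls rested on single libraries more than the count of rises. It was 186 without library 4, 229 without library 11, 256 without library 6 and 265 without library 10, and the count of rises was 389 without library 4.

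**Figure D1:**
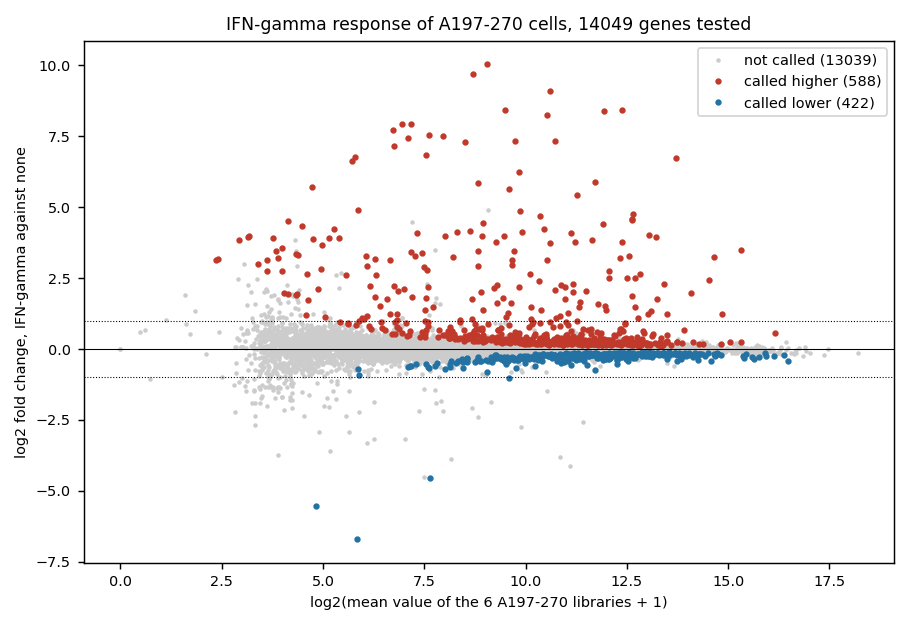
Log2 fold change of the 14049 genes tested, A197-270 cells with IFN-gamma against without (vertical axis), against the log2 mean value of the 6 libraries (horizontal axis). Red points are the 588 genes called higher and blue points the 422 called lower, and the dotted lines mark a 2-fold change. The red points spread up to a log2 change of 10.03, and nearly all blue points lie within 2-fold.

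The 6 libraries held 33943705 to 70746868 reads. Without molecular identifiers, the intervals and floors given below describe counting error alone. Correlations across genes were 0.978 to 0.987 within the groups and 0.965 to 0.972 between them, and every pair of replicates differed by more than sampling noise, with a chi-square of 7.96 to 14.5 per degree of freedom. No IFNG read was found in any of the 12 libraries, so the cytokine was not transcribed at a detectable level. All 9 HEK293 identity genes were expressed. Of the 16 markers of other cell types, PTPRC, CD3E, MS4A1, COL1A2 and HBB were at 0 in all 6 libraries. The summed value of that list was 1560 to 1700 without IFN-gamma and 1740 to 1970 with it, and CD68 was the 1 member that rose, from 39.4, 46.1 and 54.6 to 255, 413 and 330 (log2 change 2.79, adjusted p = 9.94e-08). The part of other cells in the results was not tested. In these bulk libraries a change in RNA per cell cannot be told apart from a change in the share of cells that respond.

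The promoter sequences of 6 genes that rose are shown because they carry the elements named above. Each is the RefSeq window from 250 bases before to 50 after the first listed start, on GRCh38.p14, read on the gene's own strand, with matches in capitals. The motifs searched on both strands were GAS, TTCNNNGAA, and an ISRE core of 2 GAAA runs with any 2 bases between them (a match to one may overlap a match to the other). IRF1 was fixed for display. A window without a match may still hold the element in letters that these motifs miss. OAS1 and GBP3 were the genes with a GAS match among the 30 largest rises that had a window, and GBP1, GBP4 and CXCL10 were the 3 highest in that order with an ISRE core and no GAS match, chosen after the search.
IRF1, chr5:132490724-132491023, minus strand, GAS TTCCCCGAA from position -124: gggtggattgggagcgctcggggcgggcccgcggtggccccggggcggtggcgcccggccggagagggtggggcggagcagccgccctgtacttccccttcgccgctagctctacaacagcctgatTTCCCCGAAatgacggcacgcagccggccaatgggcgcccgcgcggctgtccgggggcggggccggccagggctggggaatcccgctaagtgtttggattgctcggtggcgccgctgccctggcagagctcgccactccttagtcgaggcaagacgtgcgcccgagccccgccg
OAS1, chr12:112906712-112907011, plus strand, GAS TTCAGAGAA from position -168: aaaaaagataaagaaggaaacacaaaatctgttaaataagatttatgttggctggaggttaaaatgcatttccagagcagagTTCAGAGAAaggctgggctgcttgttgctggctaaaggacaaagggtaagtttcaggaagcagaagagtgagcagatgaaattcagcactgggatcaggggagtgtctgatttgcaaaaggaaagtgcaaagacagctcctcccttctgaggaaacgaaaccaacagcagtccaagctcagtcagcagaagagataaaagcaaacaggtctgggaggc
GBP3, chr1:89022817-89023116, minus strand, GAS TTCCTTGAA from position -15 and ISRE core TTTCAGTTTC from position 3: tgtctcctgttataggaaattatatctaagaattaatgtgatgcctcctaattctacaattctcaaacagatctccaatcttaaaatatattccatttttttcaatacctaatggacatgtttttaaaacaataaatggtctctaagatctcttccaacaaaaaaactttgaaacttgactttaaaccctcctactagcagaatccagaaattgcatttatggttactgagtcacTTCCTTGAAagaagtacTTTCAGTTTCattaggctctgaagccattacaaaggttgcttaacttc
GBP1, chr1:89065159-89065458, minus strand, ISRE core TTTCAGTTTC from position -127: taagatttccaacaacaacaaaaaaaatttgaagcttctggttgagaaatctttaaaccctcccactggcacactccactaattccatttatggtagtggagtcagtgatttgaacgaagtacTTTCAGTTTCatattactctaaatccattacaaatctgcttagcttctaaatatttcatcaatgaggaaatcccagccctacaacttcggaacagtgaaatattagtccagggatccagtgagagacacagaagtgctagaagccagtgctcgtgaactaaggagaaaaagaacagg
GBP4, chr1:89198893-89199192, minus strand, ISRE core TTTCAATTTC from position -4: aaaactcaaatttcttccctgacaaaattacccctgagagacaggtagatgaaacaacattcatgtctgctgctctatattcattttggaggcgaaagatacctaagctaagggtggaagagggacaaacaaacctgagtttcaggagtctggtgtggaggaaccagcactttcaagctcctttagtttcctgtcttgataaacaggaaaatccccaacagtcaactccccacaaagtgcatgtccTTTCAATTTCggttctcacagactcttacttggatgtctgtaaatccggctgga
CXCL10, chr4:76023448-76023747, minus strand, ISRE core GAAAGTGAAA from position -221: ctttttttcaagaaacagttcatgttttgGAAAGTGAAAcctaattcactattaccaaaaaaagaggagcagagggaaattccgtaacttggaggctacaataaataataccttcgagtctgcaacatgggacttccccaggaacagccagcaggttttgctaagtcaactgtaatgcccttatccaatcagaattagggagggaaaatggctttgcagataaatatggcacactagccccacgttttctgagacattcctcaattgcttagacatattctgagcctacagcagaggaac

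The 2 elements were described over all genes with a window. Of the 174 genes that rose at least 2-fold, 126 had one, and 59 of these held an ISRE core (46.8%), 25 a GAS match (19.8%) and 12 both. Among all 11250 genes tested that had a window the shares were 2.82% for the ISRE core and 6.16% for GAS, and among all 27305 RefSeq promoters 3.65% and 7.88%. The 342 genes that fell and had a window held an ISRE core in 1.17% and a GAS match in 3.51%. For rises of at least 4-fold, with 88 windows, the shares were 52.3% and 25.0%. A match is a run of letters, not a bound site. Genes without one may hold the element elsewhere, or in this window in other letters.

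Among the receptors and their kinases, the list of 9 genes was measured in full and 2 rose (22.2%, beside 4.19% of all genes). None fell, and the median log2 change was -0.001, beside -0.006 over all genes tested. IFNGR1, the ligand-binding chain, was at 2859, 2835 and 2906 without IFN-gamma and 3032, 2848 and 2700 with it (log2 change 0.00, adjusted p = 0.968). IFNGR2, the signalling chain, changed by 0.03 (adjusted p = 0.79), and the kinase gene JAK1 by 0.00 (adjusted p = 0.993). These groups overlapped. JAK2 rose from 363, 363 and 376 to 473, 566 and 530 (0.50 ± 0.076 SE, adjusted p = 0.000582), with no overlap. IFNAR2, a chain of the type I receptor, rose from 1740 to 1851 in the untreated libraries to 2258 to 2293 with IFN-gamma (log2 change 0.34, adjusted p = 6.42e-05). IFNAR1, IL10RB and TYK2 changed by between -0.10 and 0.00, and IFNLR1 by 0.19 with an adjusted p of 0.0873, which was 0.0378 without library 12.

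Transcription factors of the pathway rose in part. Of 21 STAT, IRF and related genes, 18 were tested, 10 rose and none fell, against 4.19% of all genes, and the median log2 change was 0.90. IRF1 (5:132481609-132490798), an early transcription factor of the response, had values of 251, 226 and 257 without IFN-gamma and 4210, 4033 and 4322 with it. That is 245 ± 16.5 against 4188 ± 146 (SD, n = 3), a log2 change of 4.09 ± 0.0603 SE with an adjusted p of 9.41e-16 (limma). All 3 treated libraries lay far above all 3 untreated ones. NLRC5, the activator of MHC class I genes, went from 105, 107 and 96.7 to 1911, 1761 and 1840, with a log2 change of 4.14.

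Factors of type I signalling rose as well. STAT2 went from 2012, 2074 and 1915 to 11299, 11228 and 11713 (log2 change 2.51), and IRF9 from 342, 300 and 267 to 1972, 1515 and 2208 (2.63). IRF7, a factor that drives interferon genes, rose from 51.6, 12.8 and 31.5 to 305, 262 and 261 (3.27, adjusted p = 6.28e-06). BATF2 rose by 3.23 and IRF8, best known from myeloid cells, by 1.36, from 703 to 788 without IFN-gamma to 1820 to 2067 with it. STAT3 rose from 3825 to 4003 to 7254 to 7510 (0.91), and IRF2, which competes with IRF1 for its sites, by 0.89. STAT4, STAT5A, STAT5B, STAT6, IRF3, BATF3 and ETV7 did not pass the test, with log2 changes from 0.00 to 0.62. IRF4 and CIITA, the activator of MHC class II genes, were under the limit on the mean, with values of at most 13.5 and 10.4 in the 6 libraries, and IRF5 was at 0 in every library.

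Feedback inhibitors responded in 3 of 17 genes (17.6%, beside 4.19% of all genes), and none fell. SOCS3, which blocks JAK kinases, rose from 127, 100 and 99.8 to 344, 267 and 317 (1.5 ± 0.142 SE, adjusted p = 4.32e-06). USP18, which removes ISG15 from proteins and blocks the type I receptor, rose from 929, 831 and 955 to 1714, 1822 and 1546 (0.90). SOCS1, the main inhibitor of JAK2 signalling, was at 2.81, 12.3 and 9.46 without IFN-gamma and 34.7, 36.2 and 20.8 with it (1.93, adjusted p = 0.0194), and its adjusted p was 0.0703 to 0.0764 without library 4, 10 or 11, 0.0614 in edgeR on the recovered reads and 0.0679 in limma on the 6 libraries alone. CISH changed by 0.51 (adjusted p = 0.072, and 0.0327 without library 11). SOCS2, SOCS4, SOCS5, SOCS6 and SOCS7 changed by 0.01 to 0.08, the phosphatase genes PTPN1, PTPN2, PTPN6 and PTPN11 by -0.08 to 0.12, and PIAS1 to PIAS4 by -0.16 to 0.05, none of them past the test.

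**Figure D2:**
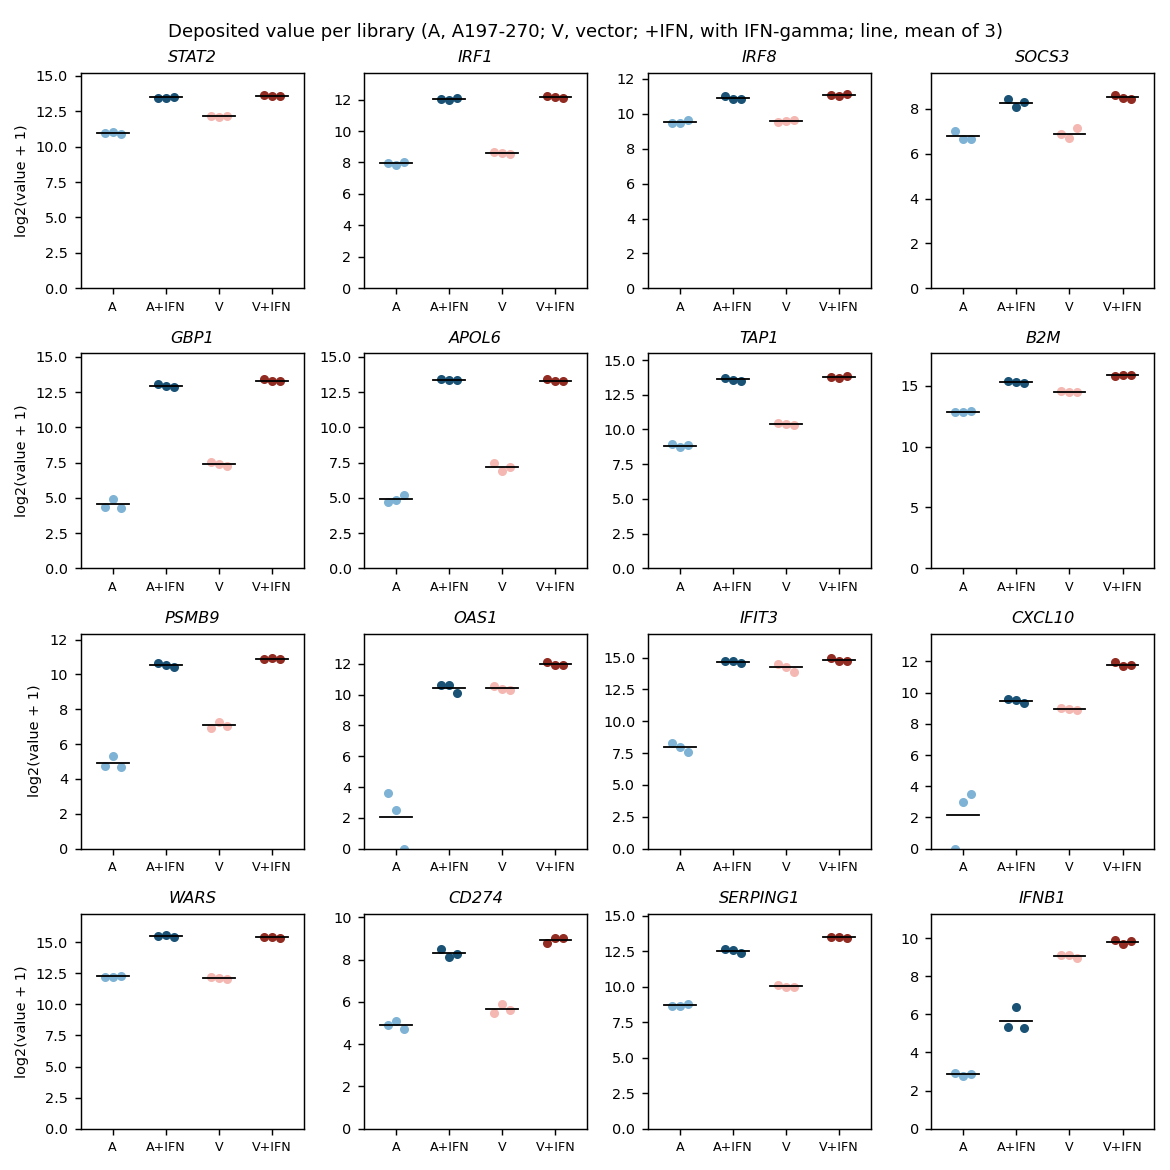
Deposited value of 16 genes in each of the 12 libraries, on a log2(value + 1) axis that starts at 0 (A, A197-270 cells; V, vector cells; +IFN, with IFN-gamma; horizontal lines, means of the 3 log2 values). In each panel the 3 treated A197-270 libraries lie above the 3 untreated ones, and IFNB1 and CXCL10 with IFN-gamma stay below the treated vector libraries.

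The largest rise was that of XAF1, a pro-apoptotic interferon-stimulated gene. It had 0 reads in libraries 4, 5 and 6 and values of 961, 1121 and 1068 with IFN-gamma. Against a floor of 3 reads over the untreated group it was at least 1310-fold higher. RARRES3, a phospholipase gene also called PLAAT4, was likewise at 0 without IFN-gamma and at 826, 880 and 772 with it, at least 1020-fold higher. SLC15A3, a transporter of the endolysosome, had 1 read without IFN-gamma and values of 300, 300 and 251 with it. Its count ratio was 1050, with an exact 95% interval of 189 to 41700.

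Guanylate-binding proteins are GTPases that attack the vacuoles of intracellular pathogens. GBP1 to GBP5 lie side by side on chromosome 1 (89006666 to 89272804), and all 5 rose, with log2 changes of 4.44 to 8.39. GBP1, whose ISRE core is shown above, went from 19.7, 29.8 and 18.9 to 8428, 7767 and 7370 (8.39 ± 0.131 SE, adjusted p = 1.61e-15). GBP4 and GBP5 had no read without IFN-gamma and values of 306, 221 and 213 and of 227, 186 and 214 with it, at least 305-fold and 260-fold higher. Values of GBP3, which carried both elements, went from 0, 2.92 and 4.20 to 488, 496 and 496. GBP2 rose from 36.6, 58.9 and 34.7 to 1007, 962 and 844. Of the 12 guanylate-binding and related GTPase genes, 8 were tested and 7 rose (87.5%, beside 4.19% of all genes). The other 2 were MX1 (3.57) and MX2 (7.43). GBP6, GBP7, IRGM and IRGC were under the limit, and IRGQ changed by -0.15 (adjusted p = 0.245).

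The apolipoprotein L cluster on chromosome 22 (35648395 to 36267530) rose in all 5 tested members, beside 4.19% of all genes. APOL6 went from 25.3, 28.0 and 35.7 to 10960, 10445 and 10320 (8.44 ± 0.124 SE, adjusted p = 9.41e-16). APOL1, a pore-forming factor against trypanosomes, went from 8.44, 3.50 and 3.15 to 3146, 3305 and 2841 (9.11). APOL3 was at 0, 2.33 and 0 without IFN-gamma and at 212, 227 and 200 with it, APOL4 rose by 4.92, and APOL2 rose from 639 to 665 to 3057 to 3193 (2.27). APOL5 had no reads.

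Antiviral genes of the type I interferon programme rose in nearly every member. Of 55 listed genes 53 were tested and 51 rose (96.2%, beside 4.19% of all genes), with a median log2 change of 3.72. This list was chosen with earlier results of these libraries known, so its count is not independent evidence. OAS1, a synthase of the messenger that activates RNase L, went from 11.3, 4.67 and 0 to 1561, 1615 and 1095 (8.42 ± 0.583 SE, adjusted p = 9.86e-08), and OAS2 from 14.1, 10.5 and 5.25 to 1881, 1908 and 1292 (7.34). OAS3 rose by 5.90. These 3 genes lie together on chromosome 12. RSAD2, or viperin, went from 15, 12.3 and 3.15 to 3114, 3462 and 2300 (8.25), and its neighbour CMPK2 from 7.51, 0 and 0 to 411, 488 and 269 (7.54). TRIM22 rose from 24.4, 19.8 and 15.8 to 3504, 3567 and 3070 (7.35).

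The IFIT genes, whose products bind foreign RNA, and the membrane-bound IFITM genes responded to different degrees. IFIT3 went from 320, 247 and 194 to 27373, 27549 and 24154 (6.72), IFIT2 from 145, 107 and 88.3 to 4528, 5554 and 4388 (5.42), IFIT1 from 1346, 993 and 704 to 15874, 17958 and 13919 (4.01), and IFIT5 rose by 2.29. IFITM3 rose by 4.68 and IFITM1 by 3.95, from 1217, 1104 and 1153 to 19591, 19125 and 15365, while IFITM2 rose by 1.13. On chromosome 11 the annotated IFITM2 gene spans that of IFITM1, so reads of these 2 genes may not be fully separated. ISG15, a ubiquitin-like modifier, went from 179, 134 and 112 to 1648, 1618 and 1351 (3.45), and its conjugating enzyme UBE2L6 rose by 3.29. The RNA sensors IFIH1 and DDX58 (RIG-I) rose by 3.72 and 3.77. Of the 2 tested members that did not rise, 1 fell and 1 did not pass the test. The latter, HERC6, was at 485 to 530 without and 506 to 631 with IFN-gamma (0.11, adjusted p = 0.543). PARP12 and ZBP1 were under the limit.

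MHC class I presentation rose in 12 of 18 genes (66.7%, beside 4.19% of all genes), with a median log2 change of 1.89. TAP1, which carries peptides into the endoplasmic reticulum, went from 489, 422 and 463 to 13553, 12253 and 11572 (4.76 ± 0.0635 SE, adjusted p = 3.44e-16), and its partner TAP2 rose by 2.05. B2M, the light chain of class I molecules, went from 7256, 7493 and 7519 to 43250, 39038 and 37842 (2.43). The trimming peptidases ERAP2 and ERAP1 rose by 3.16 and 2.39. Of the heavy chains HLA-E rose by 2.31, HLA-B by 1.77, HLA-C by 1.22 and HLA-F by 1.05. HLA genes are nearly identical to one another in places and the assignment of their shared reads is not stated, so these values are uncertain. The general chaperone genes CALR, CANX and PDIA3, which also serve this pathway, changed by 0.03 to 0.09, none past the test.

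The peptide supply changed in part. Of the immunoproteasome genes PSMB9 went from 25.3, 38.5 and 25.2 to 1593, 1507 and 1389 (5.63), PSMB8 from 1.88, 2.92 and 6.30 to 61.1, 67.6 and 66.7 (3.92), and PSMB10 from 110, 107 and 151 to 259, 228 and 246 (1.00). PSMB8, PSMB9, TAP1 and TAP2 lie within 32821833 to 32859585 of chromosome 6, and PSMB8 and PSMB9 overlap in the annotation, so their reads may not be fully separated. The activator subunits PSME1 and PSME2 rose by 1.59 and 1.26. Of 33 constitutive proteasome genes 3 rose (9.09%, beside 4.19% of all genes), PSMA3 (0.56), PSMA5 (0.37) and PSMA4, none fell, and the median change was 0.00. PSMA4 was at 9597 to 10382 without IFN-gamma and 10813 to 11512 with it (0.16, adjusted p = 0.0319), and its adjusted p reached 0.0501 to 0.129 without library 2, 4, 6, 10 or 11 and 0.0567 in limma on the 6 libraries alone.

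MHC class II genes, which in other cells follow CIITA, responded in 3 of 17 (17.6%, beside 4.19%). CTSS, a lysosomal protease, rose from 23.5, 23.3 and 17.9 to 153, 135 and 118 (2.60). HLA-DRA rose from 66.6, 90.4 and 91.4 to 150, 135 and 138 (0.77). HLA-DPA1 was at 1478 to 1573 and 1604 to 1829 (0.20, adjusted p = 0.0276), and at adjusted p values of 0.0779 to 0.111 without library 4, 5, 10 or 11, 0.0931 in edgeR and 0.0946 in limma on the 6 libraries alone. The invariant chain gene CD74 was at 14.1, 9.34 and 11.6 without IFN-gamma and 27.5, 18.1 and 14.6 with it (adjusted p = 0.457).

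Chemokine genes rose in 7 of 10 tested (70.0%, beside 4.19% of all genes). CXCL9, CXCL10 and CXCL11, ligands of the T cell receptor CXCR3, are neighbours on chromosome 4. CXCL10 went from 0, 7.0 and 10.5 to 783, 736 and 638 (7.31 ± 0.593 SE, adjusted p = 6.49e-07). CXCL11 had 3 reads in the untreated libraries and values of 33.5, 45.9 and 18.8 with IFN-gamma, a count ratio of 39.8 with an exact 95% interval of 13.2 to 197. CXCL9 was at 0 without IFN-gamma and at 4.79, 9.65 and 10.4 with it, at least 10.4-fold higher (adjusted p = 0.0136, but 0.0579 without library 11, 0.0563 in edgeR on the recovered reads and 0.0887 in limma on the 6 libraries alone). CCL2 was at 0, 3.50 and 2.10 and at 22.7, 15.7 and 24.0 (3.16, adjusted p = 0.0165, and 0.0527 to 0.068 without library 4, 10 or 12). CCL5 rose from 40.3, 40.8 and 42.0 to 130, 197 and 113 (1.77), CXCL8 by 0.74 and CXCL16 by 0.27.

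Of 10 tested interferon and cytokine genes 5 rose, beside 4.19% of all genes. In edgeR on the recovered reads 4 of the 10 rose. IFNB1, which encodes interferon beta, was at 6.57, 5.83 and 6.30 without IFN-gamma and at 39.5, 83.3 and 37.5 with it (2.81, adjusted p = 7.61e-07). Library 11 was the highest, and the groups did not overlap. IFNL1, a type III interferon gene, was at 0 and then at 8.38, 12.1 and 5.21, at least 10.4-fold higher. Its call was made by limma with all groups (adjusted p = 9.46e-06) and not by edgeR on the recovered reads (0.0563) or limma on the 6 libraries alone (0.0829). CSF1, the macrophage growth factor, rose from 219, 194 and 244 to 931, 981 and 983 (2.14), and IL15 and IL32 rose by 2.06 and 1.38.

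Enzymes, complement and surface genes that IFN-gamma is known for followed. WARS, the tryptophanyl-tRNA synthetase, was the most abundant of them and went from 4762, 4819 and 5107 to 46852, 47806 and 44747 (3.25 ± 0.0426 SE, adjusted p = 3.44e-16). IDO1, which degrades tryptophan, was at 0 and then at 46.7, 55.5 and 51.1, at least 63.5-fold higher. WARS2, the mitochondrial counterpart, fell (log2 change -0.25, adjusted p = 0.0145, and 0.0506 to 0.0623 without library 4, 11 or 12). NOS2 was at 114, 160 and 139 and at 182, 256 and 195 (0.61, adjusted p = 0.0443), which reached 0.052 to 0.189 without any 1 of libraries 1, 2, 4, 6, 8, 11 and 12 and 0.0704 to 0.0769 in edgeR, without the filter, with the 6 libraries alone or under quantile scaling.

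Complement genes rose in 8 of 16 tested, of 27 listed, beside 4.19% of all genes. None fell, beside 3.0% of all genes. SERPING1, the inhibitor of C1, went from 396, 407 and 438 to 6463, 6010 and 5400 (3.84). CFB, a component of the convertase of the alternative pathway, went from 0.938, 5.25 and 3.15 to 45.5, 71.2 and 99.0 (4.23). C4B was at 0, 1.75 and 2.10 and at 35.9, 38.6 and 49.0 (4.35), a value that is uncertain because C4A and C4B are nearly identical. C2, C1S, CFI and C1R rose by 2.26, 1.22, 0.94 and 0.70. Of the genes of the terminal pathway, C6, C7, C8A, C8B and C9 had no reads in the 6 libraries, and C8G had a value of at most 3.13. The membrane regulators CD46, CD55 and CD59 changed by -0.12 to 0.09, none past the test.

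Among cell death genes, 5 of 15 tested rose (33.3%, beside 4.19% of all genes). TNFSF10, which encodes the death ligand TRAIL, was at 12.2, 8.17 and 0 and then at 91.0, 76.0 and 57.3 (3.91), and PMAIP1, CASP8 and CASP10 rose by 0.69, 0.51 and 0.37. Of checkpoint and adhesion genes 3 of 9 tested rose (33.3%, beside the same 4.19%). CD274, which encodes PD-L1, went from 29.1, 32.7 and 25.2 to 364, 281 and 302 (3.40 ± 0.16 SE, adjusted p = 6.96e-10), ICAM1 from 12.2, 14.0 and 18.9 to 125, 123 and 109 (2.92), and CD47 rose by 0.33.

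**Figure D3:**
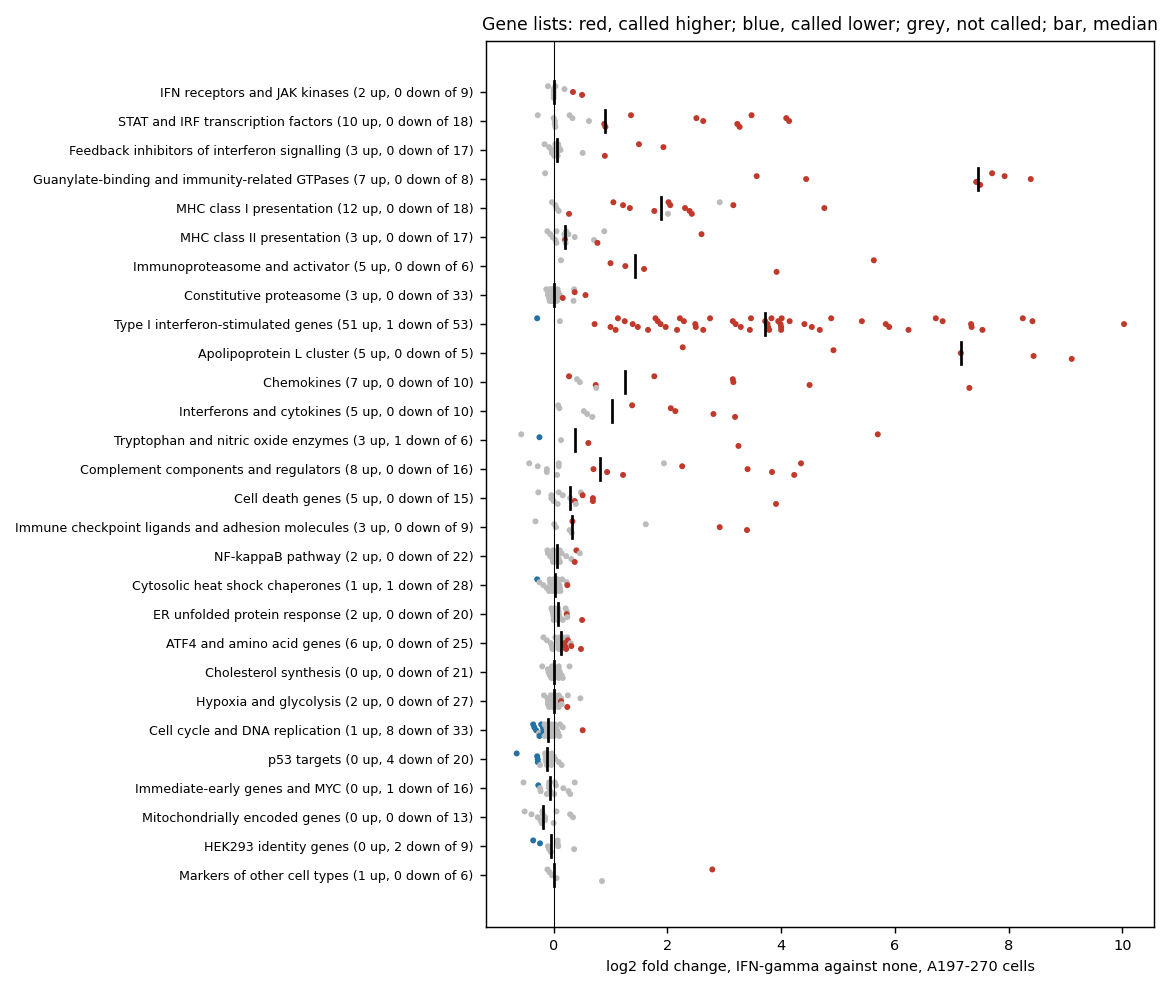
Log2 fold change of every tested member of 28 gene lists (rows), A197-270 cells with IFN-gamma against without, with the count called higher and lower beside each name. Red and blue points are members called higher and lower, grey points members not called, and black bars the medians, which are 3.72 for the type I interferon-stimulated genes and between -0.19 and 0.14 from the NF-kappaB list down to the markers of other cell types.

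The called changes in stress and housekeeping programmes were small in size. Beside the 4.19% of all genes that rose, the shares called higher were 9.09% for the NF-kappaB list, 3.57% for the chaperones, 10.0% for the unfolded protein response, 24.0% for the ATF4 list and 7.41% for hypoxia and glycolysis. Of 22 NF-kappaB genes 2 rose, TNFAIP3 (0.40) and NFKBIA (0.37), both feedback inhibitors of that pathway. Their adjusted p values were 0.0195 and 0.0172, and 0.0551 to 0.0962 and 0.0682 to 0.0747 in the fits without library 4, 5 or 11, without library 12 for TNFAIP3 or without library 10 for NFKBIA. Among 28 cytosolic chaperone genes, DNAJA1 rose by 0.24 and HSPB1 fell from 6157, 5347 and 5863 to 4739, 4889 and 4567 (-0.29). In the unfolded protein response list of 20, EDEM1 rose by 0.23, and DDIT3 was at 1935 to 2592 and 2794 to 3623 (0.50, adjusted p = 0.0402, and 0.0564 to 0.171 without library 2, 4, 5, 9, 10 or 11, 0.0706 in DESeq2 and 0.0626 without the filter). Of 25 ATF4 and amino acid genes 6 rose by at most 0.48 on the log2 scale and none fell. That count was 1 without library 11, 2 without library 10 or 5, 3 without library 4 and 4 without library 12. It was 5 without library 2 or 9 and 7 without library 6. In limma 13 of the 25 had an unadjusted p under 0.05, beside 2941 of all 14049 genes tested. CARS rose by 0.31. The remaining named members CHAC1 (0.48), ATF3 (0.25) and SLC3A2 (0.22) lost the call without library 10 or 11, with adjusted p values of 0.0503 to 0.0927, and SLC3A2 also without 4 or 5 and CHAC1 without 5 or 12. CHAC1 reached 0.0504 in edgeR, and SLC3A2 reached 0.0525 in limma on the 6 libraries alone.

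No gene of the 21 tested for cholesterol synthesis was called by limma or by edgeR on the recovered reads. In limma 3 of the 21 had an unadjusted p under 0.05, beside 2941 of all 14049 genes tested. The most abundant members SC5D and INSIG1 changed by 0.09 and 0.11. Of 27 hypoxia and glycolysis genes SLC2A3 rose by 0.24 and HK1 by 0.13, and both lost the call without some libraries, with adjusted p values of 0.0563 and 0.0592 for SLC2A3 without library 11 or 6 and 0.0597 to 0.122 for HK1 without any 1 of libraries 2, 4, 5, 6, 9, 10, 11 and 12. HK1 also reached 0.0502 in edgeR and 0.0585 in limma on the 6 libraries alone. The 13 mitochondrially encoded genes had a median of -0.19, and none passed the test in limma or edgeR. In limma 3 of the 13 had an unadjusted p under 0.05, beside the same 2941 of 14049. The share of the reads on these 13 genes was 0.546% to 0.802% without and 0.478% to 0.712% with IFN-gamma.

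Genes of mitosis were among those that fell, by small amounts. In the cell cycle list of 33 genes 8 fell, 24.2% against 3.0% of all genes, and 1 rose. PLK1, a mitotic kinase, fell from 4779, 4764 and 4939 to 3576, 3809 and 3889 (-0.36 ± 0.038 SE, adjusted p = 1.36e-05). The kinetochore gene CENPF (-0.34), the mitotic cyclins CCNB1 (-0.31), CCNA2 (-0.22) and CCNB2 (-0.18), the kinases AURKA (-0.25) and BUB1 (-0.18) and the spindle motor KIF11 (-0.19) also fell. The count was 6 to 10 in the fits that left out 1 library. CCND1, the cyclin of the G1 phase, rose from 1723, 1727 and 1710 to 2421, 2509 and 2414 (0.51). The replication genes MCM2 to MCM7 changed by -0.04 to 0.10, none past the test.

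JUN, of the immediate-early list, fell from 62522, 61030 and 59326 to 51193, 50033 and 50610 (-0.27). Of 20 p53 targets 4 fell, beside 3.0% of all genes. CCNG1 and ZMAT3 fell by 0.29 and 0.28 on the log2 scale. FDXR (-0.28) reached adjusted p values of 0.0501 to 0.153 without library 2, 4, 6, 10, 11 or 12, and GDF15, a secreted stress cytokine, was at 452, 411 and 398 and at 233, 383 and 212 (-0.65, adjusted p = 0.0388), with 0.0501 to 0.143 without library 2, 4, 5, 6, 8, 10 or 12. FDXR reached 0.0726 to 0.114 and GDF15 0.0619 to 0.0989 under other settings. The list's count was 2 without library 2, 4, 6, 10 or 12. The neurofilament genes NEFL and NEFM, part of the HEK293 identity list, fell by 0.36 and 0.24, NEFM with an adjusted p of 0.0534 without library 10. The summed value of that list was 74160 to 76370 without IFN-gamma and 68481 to 70715 with it.

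**Figure D4:**
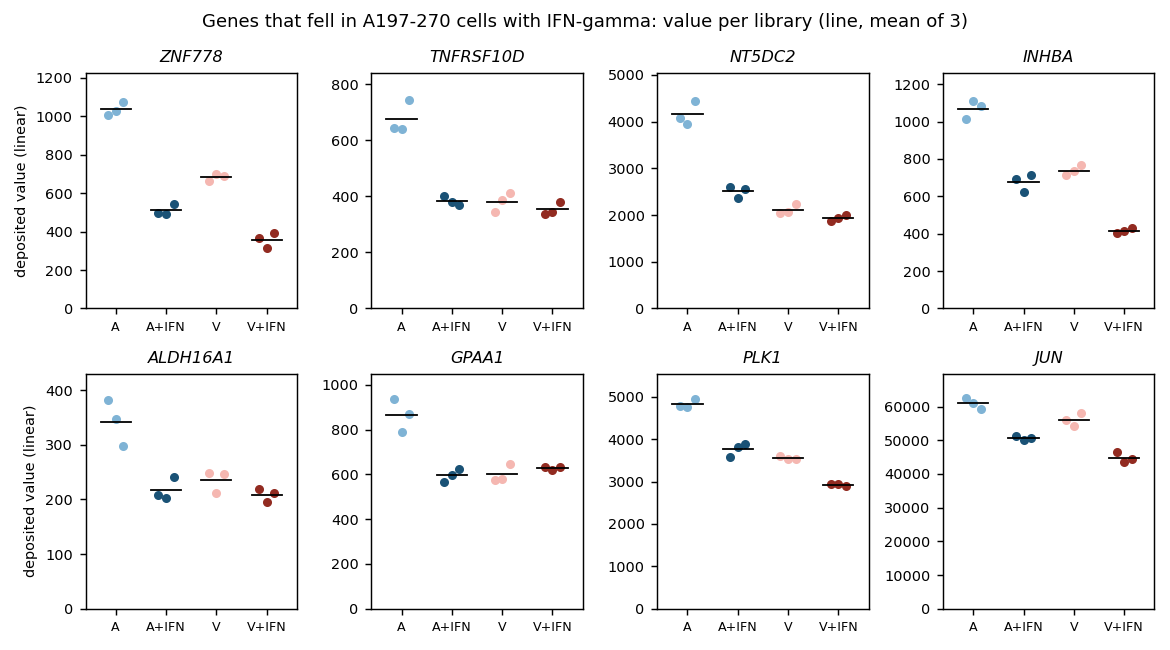
Deposited value of 8 genes that fell, in each of the 12 libraries, on linear axes that start at 0 (A, A197-270 cells; V, vector cells; +IFN, with IFN-gamma; lines, means of 3). In every panel the 3 treated A197-270 libraries lie below the 3 untreated ones.

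Leaving out read-through and clone-named genes, the largest fall was that of ZNF778, a zinc finger gene, from 1005, 1030 and 1075 to 496, 491 and 543 (-1.02 ± 0.0802 SE, adjusted p = 4.36e-07). The other 3 genes that fell at least 2-fold were read-through or clone-named genes whose reads may belong to overlapping genes. They were SYS1-DBNDD2, at 92.9, 63.0 and 183 and then at 0, with adjusted p values of 0.064 to 0.108 when any 1 of the 6 libraries was left out, ARL2-SNX15 and AC010547.5, the last 2 named after their values were seen. TNFRSF10D, a decoy receptor for TRAIL, fell from 644, 640 and 742 to 400, 380 and 369 (-0.81). NT5DC2 fell from 4079, 3953 and 4450 to 2599, 2376 and 2566 (-0.73), INHBA, which encodes activin A, from 1015, 1109 and 1083 to 693, 623 and 716 (-0.66), and ALDH16A1 from 382, 348 and 297 to 209, 202 and 241 (-0.65). The other named falls were of -0.61 to -0.91 and lost the call without 1 or more libraries. Their adjusted p values in those fits were 0.052 to 0.151 for C4orf48 (5 libraries), 0.0532 to 0.133 for PCDHA10 (9), 0.0586 to 0.132 for PCSK1N (5), 0.0622 to 0.109 for TMEM160 (4), 0.0508 to 0.0773 for GPLD1 (3), 0.0529 to 0.0727 for ZFPM1 (5), 0.0505 to 0.144 for MAP1LC3C (6) and 0.0599 for C11orf96 without library 6. Under settings that kept all libraries, C4orf48 reached 0.0607 to 0.0985, PCDHA10 0.0507 to 0.129, MAP1LC3C 0.0515 and 0.061, and SYS1-DBNDD2 0.0535.

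Of the 174 genes that rose at least 2-fold, 63 were in none of the lists. IFI16, a DNA sensor, had no read without IFN-gamma and values of 121, 119 and 86.5 with it. UBD, the ubiquitin-like modifier FAT10, was at 0 and then at 144, 62.8 and 101. DDX60, a helicase, went from 579, 549 and 402 to 12542, 12759 and 11142 (4.59), and EPSTI1 from 134, 154 and 130 to 2647, 2910 and 2367 (4.23). The butyrophilin genes BTN3A3, BTN3A1 and BTN3A2 rose by 2.95, 2.19 and 1.51. The antiviral genes SAMHD1 and ZC3HAV1 rose by 1.47 and 1.09, and TLR3, a sensor of double-stranded RNA, from 16.9, 12.8 and 13.7 to 120, 157 and 140 (3.18).

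The response of A197-270 cells was then set beside that of vector cells. In vector cells 1029 genes rose (7.32%) and 1376 fell (9.79%) with IFN-gamma, and 131 rose at least 2-fold. Of these, 105 also rose at least 2-fold in A197-270 cells, 80.2% of the vector list and 60.3% of the A197-270 list. The difference of the responses, tested as an interaction, was above 0 (A197-270 minus vector) for 115 genes (0.819%) and below 0 for 11 (0.0783%). The count below 0 was 78 without library 3, 29 without library 12, and 6 or 7 without any 1 of libraries 1, 2, 4, 6 and 8. Of the 174 genes, 88 had a larger log2 change in A197-270 cells, none a smaller one, and for 86 no difference was called. A missing call does not show that the responses are alike.

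**Figure D5:**
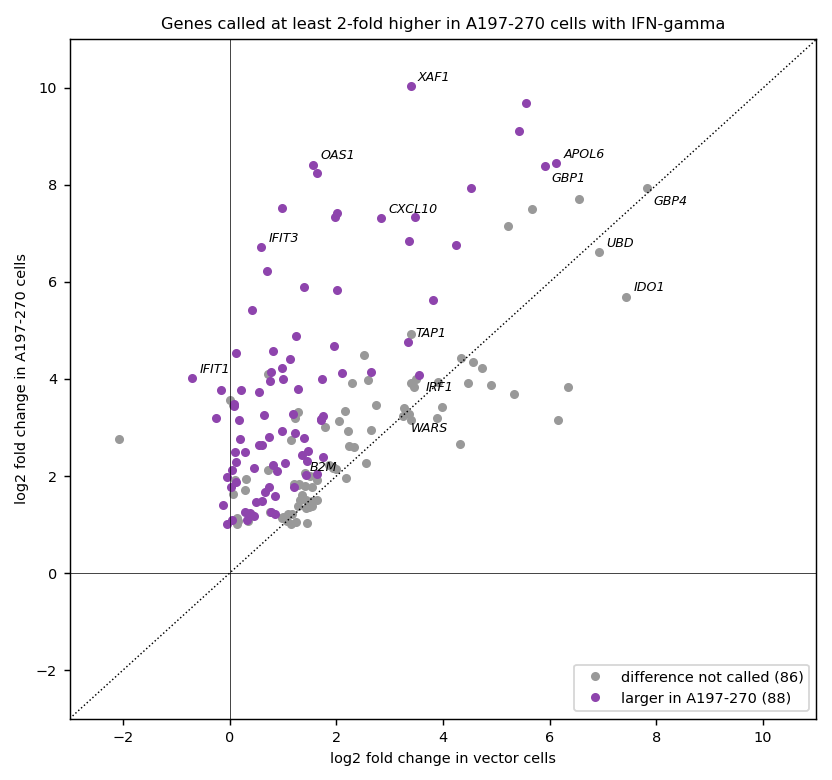
Log2 fold change with IFN-gamma in A197-270 cells (vertical axis) against that in vector cells (horizontal axis) for the 174 genes that rose at least 2-fold in A197-270 cells. Purple points are the 88 genes whose response was called larger in A197-270 cells, grey points the 86 with no difference called, and the dotted line marks equal responses, on which WARS lies at 3.25 in both.

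All 88 genes with a larger rise were called lower in untreated A197-270 cells than in untreated vector cells, as were 48 of the 86 with no difference called and 12.6% of all genes tested. The 88 were chosen by a difference that contains the same untreated libraries, so nothing is read from that count. IFIT3 was at 23714, 19624 and 15261 in untreated vector cells and at 32466, 27897 and 26755 with IFN-gamma (0.59, adjusted p = 0.0217), so the difference of the responses was 6.13 ± 0.227 SE (adjusted p = 1.89e-10). Untreated A197-270 cells differed from untreated vector cells by -6.27 on the log2 scale, and with IFN-gamma the groups differed by -0.14 (adjusted p = 0.543). STAT2 showed a similar arrangement. It was at 4491, 4414 and 4545 in untreated and 12977, 12325 and 12102 in treated vector cells (1.47), and A197-270 cells differed from vector cells by -1.16 without and -0.13 with IFN-gamma (adjusted p = 1.87e-11 and 0.023). OAS1 was at 1488, 1336 and 1276 in untreated vector cells, close to the 1561, 1615 and 1095 of treated A197-270 cells, and at 4376, 3869 and 3843 in treated vector cells. 

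The list of type I interferon-stimulated genes held 46 of the 115 genes with a difference above 0. Over all genes tested, 0.819% had such a difference. This list was chosen with earlier results of these libraries known, so its count is not independent evidence. In vector cells 32 of its 53 tested members rose and 3 fell, with a median of 0.65, beside 51, 1 and 3.72 in A197-270 cells. Among the 6 leading genes by adjusted p were XAF1 (difference 6.65), PARP9 (3.27), IFITM1 (3.19), LGALS3BP (2.03) and IFIH1 (3.18). IFIT1 moved in opposite directions in the 2 arms, with 4.01 in A197-270 cells and -0.71 in vector cells (adjusted p = 0.0144), where it went from 45004, 36591 and 31841 to 24602, 22525 and 21731. ISG15 with IFN-gamma reached 1648, 1618 and 1351 in A197-270 cells, below the 3943, 4097 and 4657 of untreated vector cells, and IFI6 reached 10580, 10181 and 7173, below 24485, 24020 and 25235.

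In treated A197-270 cells, 5 of 10 tested chemokine genes and 6 of 10 interferon and cytokine genes were called lower than in treated vector cells. None of them was called higher, and 16.2% of all genes tested were called lower. Of the 53 tested type I interferon-stimulated genes 37 were called lower and 3 higher. Of the 18 MHC class I genes 9 were called lower and 1 higher. None of the tested immunoproteasome, activator or apolipoprotein L genes was called in either direction. IFNB1 was at 561, 557 and 495 in untreated and 951, 833 and 908 in treated vector cells, and treated A197-270 cells were 4.14 lower on the log2 scale than treated vector cells (-4.14 ± 0.232 SE, adjusted p = 6.99e-08). CCL5 was at 2649, 2700 and 2338 in untreated vector cells and did not change there with IFN-gamma beyond its spread (0.02, adjusted p = 0.943). Treated A197-270 cells, at 130, 197 and 113, differed from treated vector cells by -4.18 (adjusted p = 3.7e-10). CXCL10 differed by -2.32 and CXCL11 by -3.45 between the treated groups. CXCL9, with no read in untreated cells of either arm, reached 85.4, 45.1 and 91.6 in vector cells and differed by -3.01 (adjusted p = 0.00471).

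For other targets that responded in both arms no difference was called. WARS rose by 3.25 in each, with a difference of -0.01 ± 0.0603 SE (adjusted p = 0.975). The differences were 0.12 for GBP4 and 0.11 for GBP2, 0.13 for CD274, 0.14 for CSF1, -0.11 for IRF8, 0.08 for STAT3, -0.14 for SOCS3 and -0.07 for JAK2, with adjusted p values from 0.553 to 0.967. No difference was called for any tested complement or MHC class II gene. The standard errors of these differences ranged from 0.0504 for STAT3 to 0.741 for GBP4. IRF1 (0.54 ± 0.0853 SE), TAP1 (1.41), B2M (1.07), GBP1 (2.49) and APOL6 (2.32) responded in both arms, with a larger log2 change in A197-270 cells. They were among the 88 such genes, all called lower in untreated A197-270 cells than in untreated vector cells. The difference of the responses contains the same untreated libraries, so nothing is read from those lower values here either.

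The 6 named genes with a difference below 0 either fell further in A197-270 cells or rose in vector cells. NT5DC2 fell by 0.73 on the log2 scale in A197-270 cells and changed by -0.13 in vector cells (difference -0.60, adjusted p = 0.000353), and TNFRSF10D fell by 0.81 and changed by -0.10 (difference -0.71). GPAA1, of the transamidase that attaches lipid anchors, fell from 936, 789 and 869 to 565, 599 and 625 and changed by 0.07 in vector cells. CLN8 (difference -0.55), RC3H1 (-0.34) and RIPOR1 (-0.33) rose in vector cells by 0.33 or 0.34 and did not pass the test in A197-270 cells. The RIPOR1 difference had an adjusted p of 0.0202, which reached up to 0.0701 under other settings.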

How the data were processed

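RNA was extracted with RNeasy columns and polyA-selected, per the labels' protocols. Per the submitters' processing notes, the tools were HISAT2 (2.1.0), StringTie (1.3.3b) and DESeq2 (1.22.1), and the build hg38; how shared reads were assigned, and strand use, are not given in the sources used here. The deposited values are a signal, read counts that the authors divided by 1 factor per library: all values of the 6 libraries compared are whole multiples of 1 step within 0.001 read. Reads were recovered from them, except for vector library 2, whose reads did not pass the check.

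From the deposited values, limma 3.58.1 (R 4.3.3, trended) was fitted to log2(value + 1) of 14049 genes with a mean of at least 10, in 1 model of 4 group means over 12 libraries with 8 residual degrees of freedom; 5787 genes were not tested. Tests were two-sided with Benjamini-Hochberg adjustment over all genes tested. The difference of the responses was the interaction. Alternatives were edgeR 4.0.16 and DESeq2 1.42.0 on recovered reads, pseudocounts of 0.5 and 5, filters, scalings, the 2 compared groups alone, and leaving out each library. Gene positions are from GENCODE 29 (hg38), which matched 19804 of 19836 IDs, and promoters from RefSeq (GRCh38.p14), matched by symbol.

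Named genes were all receptor, STAT, IRF and feedback genes, the 15 largest rises and falls without overlap and with a mean of at least 50, up to 4 called members per list (2 where none was called), and the 6 leading differences in each direction. A few genes that the rule takes are not reported here. Further genes were named after their values were seen. The members and lists were chosen with earlier results of these data known.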

Additional observations from a re-analysis of the deposited data

Results flagged for a closer look

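For 40 of the named genes reported here the responses of the 2 arms differed by the interaction test, limma's adjusted p being under 0.05. Each value below is the log2 response to IFN-gamma in A197-270 cells minus that in vector cells, 3 libraries a group, and a value above 0 is a larger rise in A197-270 cells (a value below 0 is a deeper fall there or a rise in vector cells).

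The transcription factors and the feedback gene were STAT2 (1.04), IRF1 (0.54), IRF7 (2.62), IRF9 (2.08), BATF2 (1.47), NLRC5 (1.49) and USP18 (0.72). Antiviral and other effector genes were XAF1 (6.65), OAS1 (6.86), RSAD2 (6.61), CMPK2 (6.55), MX2 (5.42), OAS2 (5.36), TRIM22 (3.88), PARP9 (3.27), IFITM1 (3.19), IFIH1 (3.18), LGALS3BP (2.03), RARRES3 (4.13), SLC15A3 (3.41), APOL1 (3.68), APOL6 (2.32) and GBP1 (2.49). Genes of antigen presentation and the proteasome were TAP1 (1.41), ERAP2 (1.45), B2M (1.07), ERAP1 (0.64), PSMB9 (1.82), PSME1 (0.74) and PSME2 (0.49). The remaining values above 0 were those of CXCL10 (4.47), IFNB1 (2.08), DNAJA1 (0.39) and CD68 (1.39).

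Values below 0 were found for TNFRSF10D (-0.71), NT5DC2 (-0.60), CLN8 (-0.55), GPAA1 (-0.60), RC3H1 (-0.34) and RIPOR1 (-0.33). The RIPOR1 difference was not called when library 2, 6, 8, 9, 10 or 11 was left out.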

How the results depend on the processing

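Among the counts, lists, 148 named responses and 12 named differences that were recomputed, no called value reversed; the vector responses, the other differences and the contrasts between arms were not recomputed. In the response of A197-270 cells 28 of 112 named calls were lost in at least 1 setting, and 3 of 36 genes not called were gained. The count of rises was 389 to 603 and that of falls 186 to 489 with 1 library left out (389 and 186 without library 4; 229, 256 and 265 falls without libraries 11, 6 and 10). The count of differences above 0 was 96 to 151 with 1 library left out, and that of differences below 0 was 6 to 78, against 11 with all. Of differences below 0, DESeq2 on recovered reads, with vector library 2 also left out, gave 19, and equal totals gave 23. With 1 library left out, they numbered 29 without library 12, 78 without library 3, 7 without library 2, 4 or 8, and 6 without library 1 or 6. In these fits a group of 2 was assumed to vary like the others. edgeR gave 465 rises and 302 falls, and DESeq2 643 and 530. Quantile scaling gave 530 and 562, so that falls outnumbered rises. With any listed start counted, an ISRE core was found for 54.0% and a GAS match for 25.4% of the rises of at least 2-fold, a choice made after seeing the data. No paired analysis was possible because each library carries its own number, shared with no other group. Reads limit genes near 0, for which a floor of 3 reads over the group was used.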
